A study of Mus musculus with 19 samples.

Results

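The genes of MHC class II antigen presentation were followed through the dorsal root ganglia (the paired swellings along the cord that house sensory neurons) of mice given AP20187, a drug meant to deplete macrophages in this strain, or its vehicle. None of 12 macrophage markers passed the test as lower in the treated mice, as given below. The set holds 10 genes, chosen by name: H2-Aa, H2-Ab1, H2-Eb1, Cd74, Ciita, H2-DMa, H2-DMb1, H2-DMb2, H2-Oa and H2-Ob. They are 10 of the 36682 genes in the deposited table, and all 10 passed the filter on low counts that left 22778 genes for testing. By the positions in that table, on the build GRCm39 named in the submitters' processing notes, 8 of them lie on chromosome 17 between base 34311314, where H2-Oa starts, and base 34535648, where H2-Eb1 ends. Ciita lies on chromosome 16 (10297923 to 10344290) and Cd74 on chromosome 18 (60936920 to 60945718).

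The 19 mice were male and homozygous for the MaFIA transgene (macrophage Fas-induced apoptosis), vehicle mice included. In this line the Csf1r promoter drives a suicide protein in macrophages and other myeloid cells, and the dimerizing drug AP20187 switches it on. DMM, or destabilization of the medial meniscus, is an operation on the knee ligament of the meniscus that leads to osteoarthritis. The groups were DMM with AP20187 (5 mice, numbered 58 to 62), DMM with vehicle (5 mice, numbered 32, 33, 34, 63 and 64), naive with AP20187 (4 mice, numbered 1, 3, 4 and 5) and naive with vehicle (5 mice, numbered 1 to 5). Injections were intraperitoneal, daily for 5 days, at 8 weeks after surgery in DMM mice, and naive mice were matched to them in age. The age itself and the strain background were not given in the sources used here. The lumbar ganglia L3 to L5 were pooled, in DMM mice from the side of the operated knee, and each sample gave 1 stranded poly(A) RNA-seq library. The side taken in naive mice was not given in the sources used here. Each sample number was taken as 1 mouse, and p-values measure the spread between these samples.

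MHC class II molecules show peptides from taken-up protein to CD4 T cells. Their alpha and beta chains assemble in the endoplasmic reticulum with the invariant chain, which is encoded by Cd74 and blocks the peptide groove until proteases of the endosome cut it away. The DM protein then swaps the remaining fragment for other peptides, the DO protein restrains DM mainly in B cells and some dendritic cells, and the coactivator CIITA switches the whole set of genes on. In nervous tissue, class II is known mostly from resident macrophages and from blood-borne dendritic cells and B cells.

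The class II genes are known to share a promoter module, the X box bound by the RFX complex and the Y box bound by NF-Y, on which CIITA docks. The promoter sequences are shown as background, and their part in the levels given below was not tested. Of the 10 genes, 7 had an entry among the RefSeq promoters of build GRCm38.p6, each running from 250 bases before to 50 bases after an annotated start, with 8 entries in all since H2-DMa had a pair of starts. H2-Ab1, Ciita and Cd74 had no entry. Each line gives bases 130 to 21 upstream of the start, on the strand of the gene. The positions were chr17:34287844-34287953 on the minus strand for H2-Aa, and on the plus strand chr17:34305737-34305846 for H2-Eb1, chr17:34153061-34153170 for H2-DMb1, chr17:34092249-34092358 for H2-Oa, chr17:34238775-34238884 for H2-Ob and chr17:34145119-34145228 for H2-DMb2. Capitals mark the core letters GNAAC of the X box and GATTGG of the Y box. The pair is marked where the X core lay 20 to 45 bases before the Y core.
H2-Aa: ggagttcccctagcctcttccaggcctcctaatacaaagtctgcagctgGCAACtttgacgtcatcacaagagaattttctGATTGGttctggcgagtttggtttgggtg
H2-Eb1: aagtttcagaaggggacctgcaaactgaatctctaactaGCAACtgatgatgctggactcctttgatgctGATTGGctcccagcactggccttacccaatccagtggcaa
H2-DMb1: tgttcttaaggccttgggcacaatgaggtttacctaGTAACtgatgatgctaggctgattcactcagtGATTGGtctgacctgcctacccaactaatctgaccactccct
H2-Oa: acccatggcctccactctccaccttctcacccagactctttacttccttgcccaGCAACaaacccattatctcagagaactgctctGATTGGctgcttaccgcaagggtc
H2-Ob: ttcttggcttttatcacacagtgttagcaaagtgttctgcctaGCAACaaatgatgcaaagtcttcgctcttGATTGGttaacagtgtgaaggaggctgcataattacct
H2-DMb2: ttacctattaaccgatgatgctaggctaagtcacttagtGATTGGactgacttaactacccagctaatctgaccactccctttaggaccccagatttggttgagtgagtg

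Of these 6 windows, 5 carried the pair, at a spacing of 29 to 32 bases from the first base of the X core to the first base of the Y core. The H2-DMb2 window held the Y core alone, and in H2-DMa a Y core lay further upstream, at base 199 before the start. Among all 32851 promoters of the same 300 bases, 0.721% held such a pair on the strand of the gene and 1.45% on either strand. The Y core alone, on either strand, was found in 16.1% of all promoters and in 7 of the 8 member promoters. The X core letters were in 84.8% of all promoters and in all 8. The letters and the spacing were settled after these sequences had been read, and a match is a run of letters, not a measured site.

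**Figure D1:**
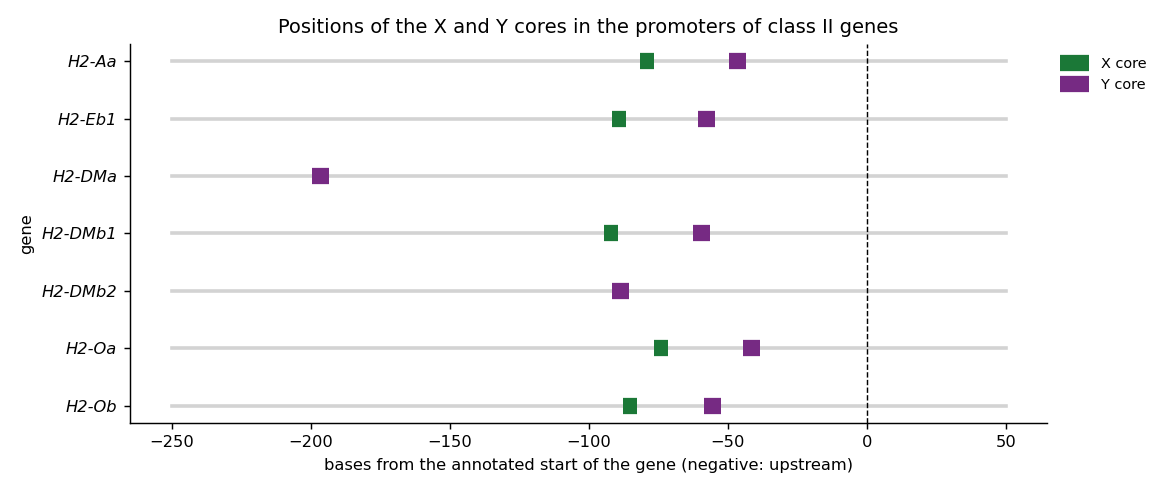
Positions of the X core (green) and Y core (purple) in the promoters of 7 class II genes, in bases from the annotated start (dashed line); the grey bar is the stretch searched. In 5 genes the pair sits 29 to 32 bases apart, while H2-DMb2 and H2-DMa show a Y core alone.

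The libraries held 60984830 to 74691396 counts each, and no pair of libraries was identical. Sensory neuron markers, which define the labelled tissue, were present in every library, with a summed level of 1303 to 8607 CPM (counts scaled to a common library size, after TMM normalization). The class II genes made up 0.00836% to 0.167% of all counts of a library. DMM vehicle mouse 64 and naive vehicle mouse 3 were the highest of their group for all 10 class II genes, and the counts and medians over the 10 are given below with and without them. Across the 22778 genes tested, edgeR's quasi-likelihood test with Benjamini-Hochberg adjustment at 0.05 called 23.8% with AP20187 against vehicle in DMM mice, 11.2% in naive mice, 0.00% for DMM against naive with vehicle and 0.702% for DMM against naive with AP20187. The difference between the drug's effects in DMM and in naive mice passed for 0.114%. With DMM vehicle mice 63 and 64 alone, DMM against naive with vehicle called 2.21%. Of the genes called in naive mice 77% were higher with AP20187, against 62.9% without TMM scaling and 39.2% on log2(FPKM + 1).

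On FPKM, counts scaled to gene length and library size, the levels could be ordered between genes. Cd74 was the most abundant, with a mean of 86.6 FPKM over the 19 libraries, and it exceeded H2-Eb1 at 44.8 FPKM in all 19. H2-Ab1 at 27.5 FPKM and H2-Aa at 26.7 FPKM were level, each being the higher in about as many libraries (H2-Ab1 in 10 of 19). The peptide editors followed at 8.24 FPKM for H2-DMb1, 3.88 FPKM for H2-DMa and 1.87 FPKM for H2-DMb2. H2-Oa at 0.886 FPKM and H2-Ob at 0.859 FPKM were level only over the pooled libraries, with H2-Oa above in 9 of 19. The median ratio of H2-Oa to H2-Ob was 0.541 in DMM and 0.592 in naive vehicle mice. With AP20187 it was 3.08 in DMM and 3.47 in naive mice. Ciita was lowest at 0.464 FPKM, below H2-Ob in 15 of 19. H2-Aa, H2-Ab1, H2-Eb1 and Cd74 together supplied 76.9% to 93.2% of the counts of the set.

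The comparison of AP20187 with vehicle asks what the drug did to these transcripts in the ganglia. In DMM mice 6 of the 10 genes were lower with AP20187 and none was higher, against 12.4% of all tested genes called lower and 11.3% called higher. The 6 were the class II chains H2-Aa, H2-Ab1 and H2-Eb1, the invariant chain gene Cd74, the peptide editor chain H2-DMa and the DO chain H2-Ob. The median log2 fold change of the 10 was -1.51, and all 10 were below 0, beside a median of -0.10 over all tested genes. In naive mice none of the 10 passed edgeR's test, against 2.57% of all tested genes called lower and 8.61% called higher, although 9 of 10 were below 0 and their median was -1.13, beside -0.07 over all genes. Without naive vehicle mouse 3 that median was -0.63, with 8 of 10 below 0, and again none passed. Unadjusted p-values were under 0.05 for 8 genes in DMM mice and for 3 in naive mice (H2-Eb1, Ciita and H2-Ob). DESeq2 called 7 and 2, respectively, where it called 19.2% and 11.9% of all genes in either direction. The effects of the drug in DMM and in naive mice did not differ for any of the 10 by edgeR's interaction test, with 0 at an unadjusted p under 0.05. These are bulk tissues, in which fewer cells of a type and less RNA per cell cannot be told apart.

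**Figure D2:**
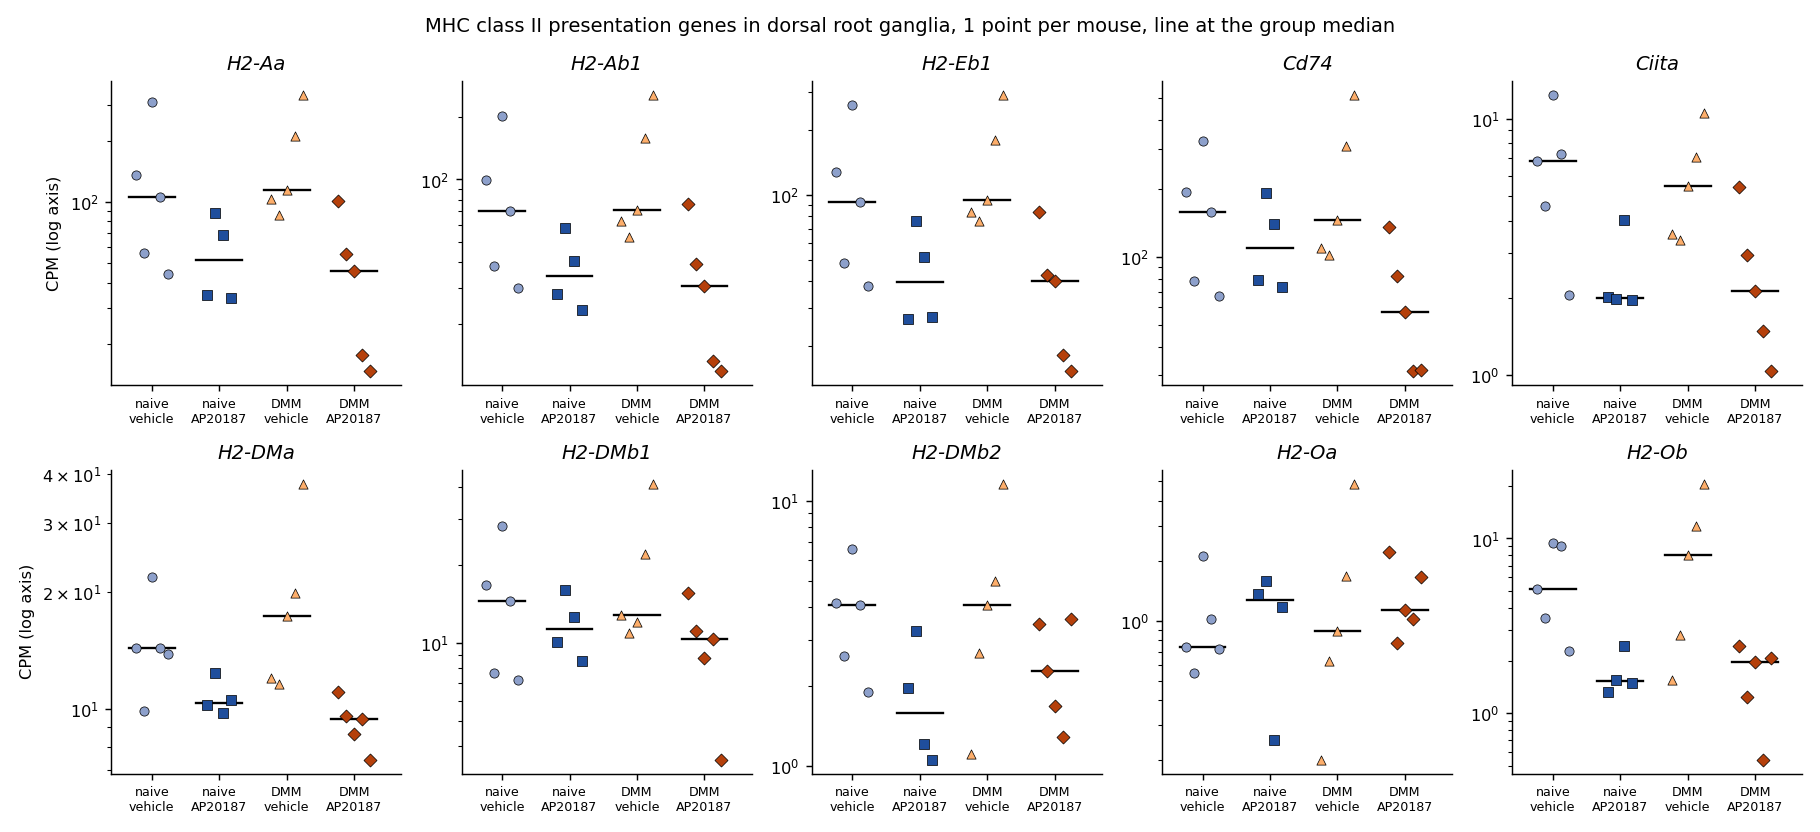
CPM of the 10 class II genes on log axes, 1 point per mouse in 4 groups, with a line at each group median. In DMM mice with AP20187 the points of H2-DMa, 7.42 to 11.1 CPM, lie below all 5 vehicle mice, and for the other 9 genes the groups overlap.

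H2-Aa encodes the alpha chain of the I-A molecule. In DMM mice with vehicle it stood at 104, 85.6, 114, 209 and 335 CPM in mice 32, 33, 34, 63 and 64, and with AP20187 at 101, 55.1, 45.5, 17.6 and 14.7 CPM in mice 58 to 62. Mice 63 and 64 were the high vehicle animals, mice 61 and 62 the low treated ones, and only treated mouse 58 reached into the vehicle range. The log2 fold change was -1.86 (SE 0.58, edgeR adjusted p = 0.0287). In naive mice the values were 135, 55.7, 309, 105 and 44.1 CPM with vehicle and 35.0, 88.1, 68.5 and 33.5 CPM with AP20187. The naive groups overlapped, and the difference of -1.21 (SE 0.62) did not pass (adjusted p = 0.202).

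The beta chains moved with it. H2-Ab1, the partner of H2-Aa, was 52.7 to 257 CPM in DMM vehicle mice and 11.8 to 76.1 CPM in DMM AP20187 mice, a log2 fold change of -1.82 (SE 0.59, edgeR adjusted p = 0.0336). H2-Eb1, the beta chain of I-E, was 76.3 to 292 CPM and 15.3 to 83.6 CPM, a change of -1.86 (SE 0.56, adjusted p = 0.0249). In naive mice the differences were -1.24 (SE 0.63, adjusted p = 0.199) for H2-Ab1 and -1.33 (SE 0.60, adjusted p = 0.1503) for H2-Eb1. The chains kept their proportions in every mouse: the FPKM of H2-Ab1 over that of H2-Aa was 0.868 to 1.19, and that of H2-Eb1 over H2-Aa was 1.48 to 2.04, over all 19 libraries. H2-Ea, the alpha chain that pairs with H2-Eb1, had no entry under that symbol in the deposited table of named genes and could not be analysed here. H2-Eb2, a minor beta chain gene outside the set, was 0.493 to 1.68 CPM in DMM vehicle mice and 0.00 to 0.364 CPM in DMM AP20187 mice, without overlap, and was lower (-2.94, SE 0.87, adjusted p = 0.0226).

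Cd74, the invariant chain, gave 109.7, 102, 146, 309 and 518 CPM in DMM vehicle mice 32, 33, 34, 63 and 64, and 135, 82.3, 57.0, 31.3 and 31.8 CPM in AP20187 mice 58 to 62. As for the chains, only mouse 58 lay within the vehicle range. It was lower by -1.81 (SE 0.54, edgeR adjusted p = 0.0235). Naive mice gave 194, 78.5, 324, 157 and 67.4 CPM with vehicle and 78.8, 192, 139 and 73.3 CPM with AP20187, with full overlap of the treated range (-0.45, SE 0.56, adjusted p = 0.614). Of the 10 genes, Cd74 had the interaction estimate farthest from 0, at -1.37 (SE 0.77), and it did not pass (adjusted p = 0.742). Measured against its partner chain, Cd74 was highest in treated naive mice. The FPKM ratio of Cd74 to H2-Aa was 4.60 to 5.09 there and 2.37 to 3.46 in naive vehicle mice, without overlap, while in DMM mice 2.84 to 4.89 with AP20187 overlapped 2.39 to 3.49 with vehicle.

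Ciita, the coactivator on which expression of the others depends, was rare. It stood at 3.56, 3.37, 5.48, 7.07 and 10.5 CPM in DMM vehicle mice and at 5.43, 2.94, 2.14, 1.48 and 1.04 CPM in DMM AP20187 mice. Again mouse 58 was the only treated animal inside the vehicle range. The difference of -1.20 (SE 0.47) did not pass edgeR's test (adjusted p = 0.0712). In naive mice Ciita was 6.83, 4.57, 12.4, 7.26 and 2.06 CPM with vehicle and 2.02, 1.98, 4.02 and 1.96 CPM with AP20187 (-1.41, SE 0.51, adjusted p = 0.0832). Treated naive mouse 4 was inside the vehicle range and the other 3 lay just under its lowest value. DESeq2 called Ciita lower in both comparisons, with adjusted p = 0.0419 in DMM and 0.0312 in naive mice. Ciita overlaps Dexi on the opposite strand over 23896 bases, and whether the counting used strand was not given in the sources used here.

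H2-DMa and H2-DMb1 encode the alpha and the usual beta chain of the peptide editor DM. H2-DMa was 12.01, 11.6, 17.4, 19.9 and 37.9 CPM in DMM vehicle mice and 11.1, 9.62, 8.62, 9.44 and 7.42 CPM in DMM AP20187 mice. It was the only gene of the 10 whose DMM groups did not overlap, where 4.18% of all tested genes did not overlap downward. It was lower by -1.10 (SE 0.27, edgeR adjusted p = 0.00945). In naive mice it was 9.89 to 21.8 CPM with vehicle and 9.80 to 12.4 CPM with AP20187 (-0.47, SE 0.29, adjusted p = 0.291). H2-DMa shares part of its span with Brd2 (3079 bases), Gm50335 (1495 bases) and Gm20493 (637 bases) on the opposite strand. On the same strand it overlaps Gm50336 over 591 bases.

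H2-DMb1 stood at 12.8, 10.9, 12.1, 22.0 and 41.2 CPM in DMM vehicle mice and at 15.6, 11.2, 8.79, 10.4 and 3.55 CPM in DMM AP20187 mice. The groups overlapped in 2 treated mice, 58 and 59, and the difference of -1.001 (SE 0.43) did not pass edgeR's test (adjusted p = 0.0996). H2-DMb2, a near copy of the beta chain gene, was 1.11 to 11.7 CPM and 1.29 to 3.601 CPM, with a like difference of -0.995 (SE 0.51, adjusted p = 0.162). In naive mice the differences were -0.33 (SE 0.46, adjusted p = 0.646) for H2-DMb1 and -1.05 (SE 0.55, adjusted p = 0.212) for H2-DMb2. Of the distinct 50-base stretches of their transcripts, 22.7% of those of H2-DMb1 and 21.2% of those of H2-DMb2 occurred in the other gene, so their split of reads is uncertain. With both counts summed the DMM difference was -0.9996 (SE 0.41, adjusted p = 0.0800). The FPKM of H2-DMa over that of H2-Aa was 0.121, 0.192, 0.208, 0.589 and 0.552 in DMM AP20187 mice 58 to 62 and 0.104 to 0.168 in DMM vehicle mice. It was 0.155 to 0.345 in naive AP20187 mice and 0.0776 to 0.346 in naive vehicle mice. The groups overlapped in both settings. The FPKM of H2-DMb1 over that of H2-Aa was 0.3504 to 1.33 with AP20187 and 0.237 to 0.288 with vehicle in DMM mice, and 0.410 to 0.6498 and 0.206 to 0.3699 in naive mice, without overlap in either. Both ratios fall by construction where H2-Aa is high, and they carry no test.

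The pair of DO chains parted. H2-Ob, the DO beta chain, was 1.54, 2.81, 7.99, 11.8 and 20.6 CPM in DMM vehicle mice and 2.43, 1.23, 1.97, 0.539 and 2.07 CPM in DMM AP20187 mice. Vehicle mouse 32 lay among the treated mice, and the other 4 vehicle mice were above all of them. It had the fold change farthest from 0 of the 10 genes, -2.44 (SE 0.59, edgeR adjusted p = 0.00787). H2-Oa, the DO alpha chain, was 0.200, 0.627, 0.893, 1.68 and 4.87 CPM with vehicle and 2.21, 0.775, 1.13, 1.02 and 1.65 CPM with AP20187. Its groups overlapped broadly, and its difference had no stable sign: it was -0.29 (SE 0.65, adjusted p = 0.795) by edgeR and 0.67 by limma-voom. In naive mice H2-Ob was 5.14, 3.51, 9.44, 9.02 and 2.27 CPM with vehicle and 1.31, 1.55, 2.42 and 1.49 CPM with AP20187 (-1.79, SE 0.63, adjusted p = 0.0706). H2-Oa in naive mice was 0.544 to 2.12 CPM with vehicle and 0.252 to 1.59 CPM with AP20187 (0.09, SE 0.69, adjusted p = 0.945), and this sign also turned under other settings. Within a mouse, the FPKM of H2-Oa over that of H2-Ob was 0.421 to 0.903 with vehicle and 2.21 to 7.40 with AP20187 in DMM mice. In naive mice it was 0.433 to 1.21 with vehicle and 4.03, 3.95, 0.391 and 2.98 with AP20187, so that mouse 4 alone stayed with the vehicle mice. H2-Oa rested on 13 to 331 counts a library, and it overlaps BC051537 on the opposite strand over 2895 bases.

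**Figure D3:**
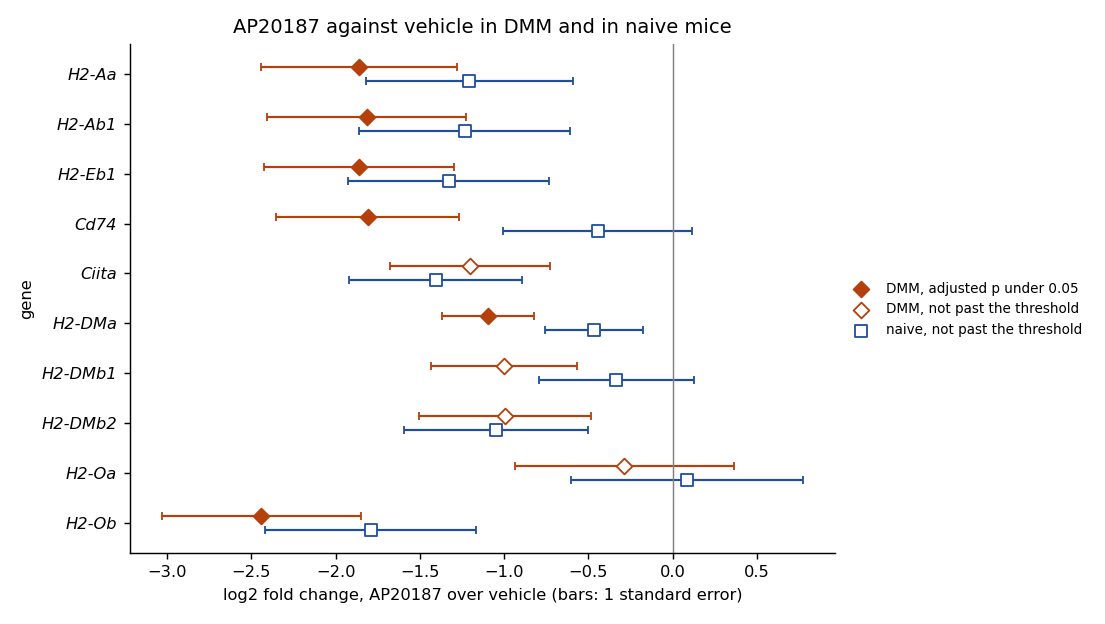
Log2 fold change of AP20187 over vehicle for the 10 class II genes in DMM mice (diamonds) and naive mice (squares), with bars of 1 standard error; filled symbols have an edgeR adjusted p under 0.05. The 6 filled symbols are all in DMM mice, between -1.10 and -2.44, and H2-Oa is the gene nearest 0 in both.

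The count of 6 in DMM mice rested on a few animals. With vehicle mice 63 and 64 alone it was 6 of 10, where 4.73% of all tested genes were called in either direction. With vehicle mice 32, 33 and 34 alone it was 0 of 10, where 36.3% were called. The median of the 10 was -2.14 and -0.74 in those fits. The count was 2 of 10 without AP20187 mouse 60 (17.2% of all genes called), without AP20187 mouse 62 (17.3%) or without vehicle mouse 64 (34%), and 5 of 10 without vehicle mouse 64 and naive vehicle mouse 3 (33.7%). The median was -1.10 without vehicle mouse 64, with or without naive vehicle mouse 3. H2-DMa and H2-Ob passed in all 10 fits that left out 1 DMM mouse, with adjusted p up to 0.0285 and 0.0214. Vehicle mice 63 and 64 also carried more marker RNA of other cells than mice 32, 33 and 34. Their summed levels were 430.4 and 674 CPM against 193 to 239.5 CPM for macrophage markers, 102 and 206 against 15.8 to 76.1 CPM for B cell markers, 2482 and 7198 against 364 to 1899 CPM for neutrophil lineage markers, and 7569 and 17681 against 1049 to 4475 CPM for erythroid markers. The part of these cells in the class II result was not tested.

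With vehicle, DMM and naive ganglia did not differ in any class II gene by edgeR, none had an unadjusted p under 0.05, and the other tools and settings also called none. The log2 differences ran from -0.14 for Ciita to 0.68 for H2-Oa, with 9 of 10 above 0 and a median of 0.41, beside 0.03 over all genes. That median was 1.15 with DMM vehicle mice 63 and 64 alone and -0.48 with mice 32, 33 and 34 alone, and without mouse 64 it was -0.04. Without naive vehicle mouse 3 it was 0.88, with all 10 above 0, and without both of these mice 0.30. With AP20187, DMM and naive mice differed in none of the 10 either (0 at an unadjusted p under 0.05). The median difference was -0.16, and its sign was not stable: it was -0.44 without DMM mouse 58, 0.039 without DMM mouse 61 and 0.018 without naive mouse 3. Cd74 was farthest from 0 at -0.84 (SE 0.56, edgeR adjusted p = 0.456). The drug comparisons share no animal with each other, but each surgery comparison shares its groups with them.

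Of 12 macrophage markers, 1 was higher with AP20187 in DMM mice (the mannose receptor Mrc1) and 4 in naive mice (the lysosomal Cd68, the complement gene C1qb, the Fc receptor Fcgr1 and the cytoskeletal Aif1), and none was lower. Of all tested genes, 11.3% were called higher and 12.4% lower in DMM mice, and 8.61% and 2.57% in naive mice. Their summed level was 271 to 1082 CPM in DMM AP20187 mice, 193 to 674 CPM in DMM vehicle mice, 503 to 847 CPM in naive AP20187 mice and 109 to 538 CPM in naive vehicle mice. Csf1r, the gene whose promoter drives the transgene, differed by -0.02 (SE 0.46, edgeR adjusted p = 0.982) in DMM and 0.45 (SE 0.48, adjusted p = 0.554) in naive mice. The summed CPM of the class II genes alone overlapped between drug and vehicle. It was 93.0 to 436 with AP20187 and 348 to 1529 with vehicle in DMM mice. In naive mice it was 182 to 450 and 207 to 1180. As a ratio to the macrophage markers, the class II genes separated every treated mouse from every vehicle mouse. Their summed CPM over the summed CPM of the 12 markers was 1.81 to 2.27 in DMM vehicle mice, 1.44 to 2.22 in naive vehicle mice, 0.249 to 0.403 in DMM AP20187 mice and 0.339 to 0.564 in naive AP20187 mice. Vehicle mice 63 and 64 were the highest of the DMM vehicle group on this ratio too, at 2.15 and 2.27, beside 1.81 to 1.98 in mice 32, 33 and 34.

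Single pairs of genes were compared as well. The FPKM of Cd74 over that of Csf1r was 10.3 to 12.2 in DMM vehicle mice and 2.59 to 4.54 in DMM AP20187 mice, without overlap. In naive mice it was 7.39 to 13.1 with vehicle and 4.08 to 7.59 with AP20187, with treated mouse 3 just above vehicle mouse 2. Cd74 over Cd68 was 9.14 to 15.6 in all 10 vehicle mice and 1.01 to 3.97 in all 9 treated mice. The ratios were chosen after the values had been seen, and they are given as descriptions with no test.

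**Figure D4:**
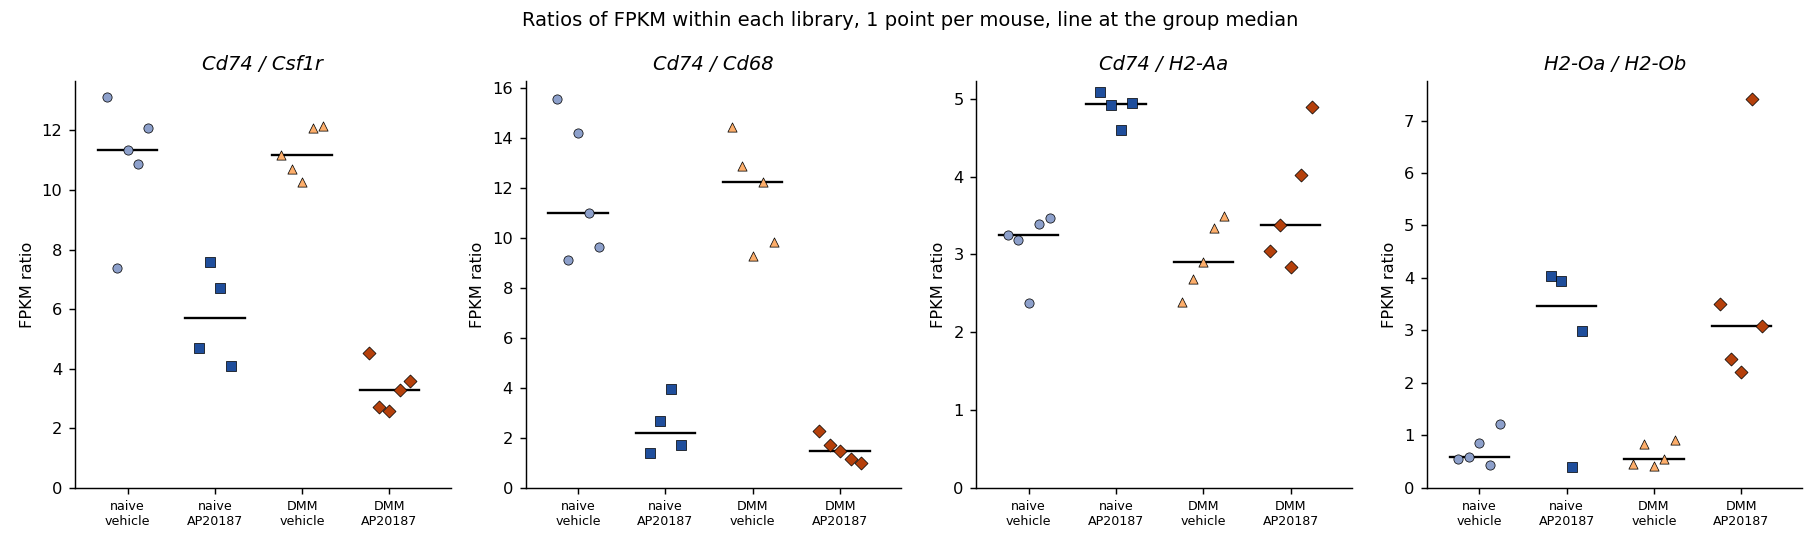
Ratios of FPKM within each library, 1 point per mouse with a line at the group median: Cd74 to Csf1r, Cd74 to Cd68, Cd74 to H2-Aa and H2-Oa to H2-Ob. Cd74 to Cd68 is 1.01 to 3.97 in treated and 9.14 to 15.6 in vehicle mice; in H2-Oa to H2-Ob naive AP20187 mouse 4, at 0.391, lies with the vehicle mice.

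B cell markers fell with the drug in both settings. Of 10 markers, 9 were lower in DMM mice and 7 in naive mice, where 12.4% and 2.57% of all tested genes were called lower. The medians were -3.69 and -2.94, beside -0.10 and -0.07 over all tested genes. The summed level was 15.8 to 206 CPM with vehicle and 4.37 to 20.02 CPM with AP20187 in DMM mice, and 35.3 to 93.5 and 5.75 to 13.6 CPM in naive mice. Among genes of the early B lineage, Rag1, Vpreb3 and Igll1 were lower in both, 3 of 5. The class II sum over the B cell sum was 8.84 to 23.9 in DMM AP20187, 6.23 to 24.8 in DMM vehicle, 16.6 to 57.4 in naive AP20187 and 5.09 to 12.8 in naive vehicle mice. Class II RNA per unit of B cell marker RNA overlapped between drug and vehicle in DMM mice and was higher with the drug in naive mice, without overlap. The part of B cells in the class II result was not tested.

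**Figure D5:**
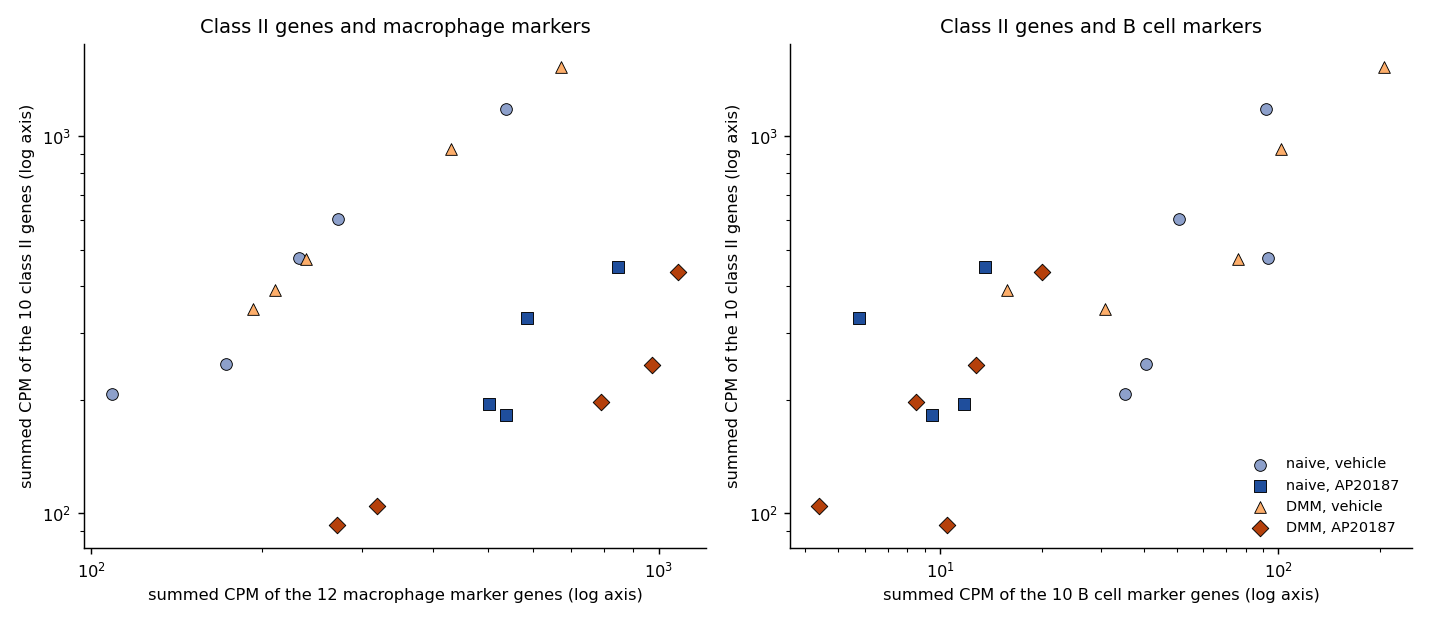
Summed CPM of the 10 class II genes against that of 12 macrophage markers (left) and of 10 B cell markers (right), log axes, 1 symbol per mouse. On the left the vehicle mice form an upper band, with ratios of 1.44 to 2.27, and the treated mice a lower one, with ratios of 0.249 to 0.564; on the right treated mice lie at 4.37 to 20.02 CPM of B cell markers.

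Markers of other cell types are given beside the same shares of all tested genes, 11.3% higher and 12.4% lower in DMM mice and 8.61% and 2.57% in naive mice. Of 10 dendritic cell markers, the cytokine receptor Flt3 and the homing receptor Ccr7 were lower in DMM mice and none passed in naive mice, with a summed level of 35.9 to 54.7 CPM in treated and 49.5 to 83.7 CPM in vehicle DMM mice. Erythroid markers, which stand for red cells and their precursors, were below 0 for 4 of 4 in DMM mice (median -1.70), and the hemoglobin genes Hba-a1 and Hbb-bs passed as lower. Their sums were 862 to 3566 CPM in treated and 1049 to 17681 CPM in vehicle DMM mice. In naive mice 4 of 4 were below 0 (median -0.86) and none passed, with sums of 1330.3 to 2659 and 2191 to 8953 CPM. Markers of the neutrophil lineage rose, 7 of 8 in DMM and all 8 in naive mice, with sums of 16347 to 28105 CPM in treated and 364 to 7198 CPM in vehicle DMM mice, and of 7848 to 26981 and 759 to 2108 CPM in naive mice. Of 4 monocyte markers, Ly6c2 and Chil3 were higher and Ccr2 lower in both settings, and F13a1 was higher in DMM mice. Sensory neuron markers were lower for 3 of 6 in DMM mice (Tubb3, Rbfox3 and Prph), with sums of 1303 to 4089 CPM against 3500.4 to 7648 CPM. In naive mice all 6 were below 0 (median -0.83) and none passed by edgeR, with 2 at an unadjusted p under 0.05. Their sums there were 1405 to 6123 CPM in treated and 4668 to 8607 CPM in vehicle mice. T cell markers passed for 0 of 6 by edgeR in either setting, with 1 (Cd4) in each at an unadjusted p under 0.05. Skeletal muscle markers were 1385 to 2101 CPM in naive AP20187 mice and 9.93 to 383 CPM in naive vehicle mice, with 1 of 4, the troponin Tnnt3, higher. In DMM mice they were 13.1 to 114 CPM with AP20187. With vehicle they were 1593 CPM in mouse 32 and 11.4 to 209 CPM in the other mice. The median difference was -2.93, and none of 4 passed by edgeR, with all 4 at an unadjusted p under 0.05. How far these shifts in RNA makeup enter the class II levels was not tested.

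Of 7 factors that act on class II promoters, 4 were higher in DMM mice and none was lower, against 11.3% of all tested genes called higher and 12.4% called lower. The 4 were the NF-Y subunits Nfya (0.73, SE 0.19, edgeR adjusted p = 0.0132), Nfyb (0.66) and Nfyc (0.64), which bind the Y box, and Creb1 (0.41), which binds beside the X box. The RFX subunits Rfx5, Rfxap and Rfxank did not pass, with differences of 0.20, -0.48 and 0.09. In naive mice none of the 7 passed by edgeR, with Nfyc alone at an unadjusted p under 0.05. Among 12 genes of the interferon gamma route, the main known inducer of Ciita, and of related factors, 4 were higher and 1 lower in DMM mice. Those were the receptor chain Ifngr1 (1.05), the kinase Jak2 (0.78), the factor Irf1 (0.75) and the myeloid factor Spi1, known as PU.1 (2.60, SE 0.58, adjusted p = 0.00501), and, lower, the lymphoid factor Irf4 (-1.74, SE 0.58, adjusted p = 0.0380). Naive mice showed Jak2 (0.66), Irf1 (0.98) and Spi1 (2.56) higher and Irf4 (-2.69) lower. Spi1 was 116 to 248 CPM in DMM AP20187 mice and 5.34 to 76.8 CPM in DMM vehicle mice, without overlap.

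Most genes that work on class II molecules after transcription did not pass. In DMM mice, where 11.3% of all tested genes were called higher and 12.4% lower, 1 of 10 endosomal processing genes was higher, the signal peptide peptidase Sppl2a (0.57), which clears the invariant chain stub, and 2 were lower, the protease Ctsl (-0.82) and Cd83 (-1.11), which keeps class II on the surface. Cathepsin S, the main protease of the invariant chain in antigen-presenting cells, did not pass in DMM (Ctss, 0.37, SE 0.45, edgeR adjusted p = 0.604) or naive mice (1.39, SE 0.48, adjusted p = 0.0685). None of the 10 passed in naive mice, where 5 had an unadjusted p under 0.05. Of 6 costimulators and checkpoint ligands, Cd274, which encodes PD-L1, was lower in DMM mice (-0.72) and none passed in naive mice. Of 6 genes that lower class II, none passed in DMM mice, with 1 at an unadjusted p under 0.05, and Il10 was higher in naive mice, from 0 counts in all 5 vehicle mice to 0 to 27 counts in treated mice. Of 5 tested genes on the side of the T cell, none passed by edgeR in either setting, with 2 in DMM and 1 in naive mice at an unadjusted p under 0.05.

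Mouse to mouse within the groups, the class II genes varied together. After group means were taken out, the 12 genes outside the set that followed the mean of the 10 most closely over the 19 libraries were Epsti1 (Pearson r 0.973), Ifi204 (0.972), Ctss (0.971), Ifi30 (0.965), P2ry6 (0.964), Ctsc (0.964), Fcgr2b (0.962), Ifi211 (0.958), Il10ra (0.957), Ifi207 (0.957), C1ra (0.948) and Pttg1ip (0.946). Ctss and Ifi30, an endosomal thiol reductase, were on the list of processing genes. Ctss thus followed the class II genes closely within groups and yet stood at 44.2 to 132 CPM in DMM AP20187 mice and 29.5 to 154 CPM in DMM vehicle mice. By cell type, the median r was 0.909 for macrophage, 0.806 for monocyte, 0.767 for erythroid, 0.714 for T cell, 0.713 for dendritic cell, 0.712 for neutrophil lineage and 0.655 for B cell markers. It was 0.215 for myelinating Schwann cell, 0.024 for skeletal muscle, -0.39 for satellite glia and -0.76 for sensory neuron markers. The members themselves had 0.856, beside 0.048 over all tested genes outside the set. Each member was set against the mean of the other members, and every gene outside the set against the mean of all 10. In all, 920 genes outside the set reached 0.8. The points share libraries, depth and scaling, and the r values are descriptions.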

How the data were processed

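Bulk RNA-seq of ganglia from 19 mice was analysed. Per the submitters' processing notes the build was GRCm39 and the tools named were cutadapt, HISAT2 and StringTie, with no version or role. The counting program, its use of strand and the annotation were not given in the sources used here. Counts were deposited as whole numbers with no scaling, per the file headers, in a matrix of 56691 entries (6448 without a gene name) and, beside FPKM, in a table of 36682 named genes. The FPKM were computed by the authors, per the file headers. For all 10 members the counts were equal in both tables.

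The counts of the named genes were tested with edgeR 4.0.16 (R 4.3.3): TMM scaling, filterByExpr with a minimum count of 10, 1 model of the 4 groups over all 19 libraries, the quasi-likelihood F test for 5 contrasts, two-sided, with Benjamini-Hochberg adjustment over 22778 genes and a threshold of 0.05. Standard errors were the log2 fold change divided by the root of F. The deposited counts summed to 60984830 to 74691396 a library, a depth that limits counting error only, and CPM were computed with these totals multiplied by the TMM factors. FPKM served for levels between genes and for ratios. The scripts were tested on simulated data.

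The members, gene lists and marker lists were chosen with earlier results of these data known. All members are named in every comparison, list genes where they passed the test or bear on a result, and the 12 genes most like the members by the r of deviations from group means. Alternatives were DESeq2 1.42.0, no TMM, no filter, limma-voom with sample weights (limma 3.58.1), log2(FPKM + 1) and log2(FPKM + 0.1) with limma, the groups compared alone, the numbers of the DMM vehicle mice split, a replicate block and each mouse left out. Leaving out DMM vehicle mouse 64 and naive vehicle mouse 3 together, the sum of H2-DMb1 and H2-DMb2, the naive fit without the block on the same mice and the medians over the members were added after seeing the data. The transgene was not analysed here. Overlaps with neighbours were read from the gene positions in the deposited table of named genes, and shared transcript stretches from GENCODE vM21. The single-gene values of 1 cell type marker are not reported here.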

Additional observations from a re-analysis of the deposited data

Results flagged for a closer look

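In 112 groups of 4 or 5 values, 8 held a mouse that stood apart from the rest of its group by Dixon's criterion at 95%, and chance gives about 1 in 20. Treated naive mouse 4 had 4.02 CPM of Ciita, beside 1.96 to 2.02 CPM in the other 3. Its neighbour in the group, mouse 3, had a Ciita to H2-Aa ratio of 0.00871 in FPKM, beside 0.0230 to 0.0232. In naive vehicle mouse 3, the highest of its group for all class II genes, the ratio of Cd74 to H2-Aa was 2.37, beside 3.19 to 3.46.

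DMM AP20187 mouse 61 had an H2-DMb1 to H2-Aa ratio of 1.33, beside 0.3504 to 0.544, and an H2-Oa to H2-Ob ratio of 7.40, beside 2.21 to 3.50. In DMM AP20187 mouse 62, H2-DMb2 supplied 50.4% of the counts of the H2-DMb1 and H2-DMb2 pair, beside 11.1% to 18.1% in the group and 7.98% to 25.2% in the other 3 groups. The same mouse had an H2-Ob to H2-Aa ratio of 0.0980, beside 0.0154 to 0.0302. DMM vehicle mouse 64 had a summed level of dendritic cell markers of 83.7 CPM, beside 49.5 to 54.9 CPM.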

How the results depend on the processing

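Shares of all genes called in either direction follow in brackets. In DMM mice the count of 6 lower genes (23.8%) was 7 by DESeq2 (19.2%), 6 without TMM (24.7%), by limma-voom (46.9%) and on both FPKM scales (26.8% and 26.3%), 5 without the low-count filter (11.3%) and 4 with only the groups compared (19.8%). It was 0 with vehicle mice 32, 33 and 34 alone and 2 to 7 when single mice were left out. In naive mice the count of 0 (11.2%) became 2 by DESeq2 (11.9%) and 1 with only the groups compared (13%), and stayed at 0 when single mice were left out. With the replicate number as a block on naive mice 1, 3, 4 and 5 it was 5 (11.5%), and 1 in the same mice without the block (6.8%). The correlations of deviations between same-numbered mice were 0.00781, 0.254, -0.0532 and 0.223, and 2 of the 4 numbers matched best with their own. With only 4 numbers, this check cannot tell whether same-numbered samples are paired. H2-Oa changed sign most often. In DMM mice it was 0.67 by limma-voom, 0.23 on log2(FPKM + 0.1), 1.24 with vehicle mice 32, 33 and 34, 0.67 without DMM vehicle mouse 64 and naive vehicle mouse 3, and -0.57 to 0.67 with single mice left out. In naive mice it was -0.011 without TMM, -0.32 by limma-voom, -0.041 on log2(FPKM + 1) and -0.14 on log2(FPKM + 0.1), -0.13 with the replicate block, -0.032 in the same mice without it and -0.14 to 0.53 with single mice left out. H2-DMb1 in naive mice was 0.031 without DMM vehicle mouse 64 and naive vehicle mouse 3, and -0.50 to 0.031 with single mice left out. For DMM against naive with vehicle, DMM vehicle mice 32, 33 and 34 alone gave -0.46 for Cd74 and -0.12 for H2-DMa. The causes were not tested. Counts over all genes moved too. In DMM mice they went from 5410 to 10676 by limma-voom, 1156 with vehicle mice 63 and 64 alone and 8450 with mice 32, 33 and 34 alone. In naive mice they went from 2548 to 4367 (DESeq2), 4542 (limma-voom) and 4147 and 4225 on the FPKM scales. For DMM against naive with AP20187 they went from 160 to 1143, 2456, 1220 and 1011, and to 73 without the filter. The interaction went from 26 to 237, 53, 56 and 35, to 13 without the filter and to 90 with mice 63 and 64 alone. For DMM against naive with vehicle the count went from 0 to 541 with mice 63 and 64 alone, and to 1 by DESeq2 and 1 by limma-voom. With single mice left out, the drug comparison called 3212 to 7677 genes in DMM mice and 994 to 3452 in naive mice. Those fits called 43 to 269 for DMM against naive with AP20187 and 12 to 57 for the interaction. On log2(FPKM + 0.1) the median of all genes shifted from -0.07 to -0.21 in naive mice. Among the 10 genes H2-Oa had the fewest counts, 13 to 331 a library.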
